A study of Drosophila melanogaster with 4 samples.

Results

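The genes described here encode the subunits of oxidative phosphorylation. They were chosen by symbol from the gene count table of female Drosophila melanogaster guts: nuclear genes whose symbol begins with ND-, Sdh, UQCR-, COX or ATPsyn, and the mitochondrially encoded mt:ND, mt:Cyt-b, mt:Co and mt:ATPase genes. The rule took 101 of 17807 genes. These were 63 plain nuclear subunit genes, 24 nuclear copies whose symbol ends in L with or without a number, 1 assembly factor that shares the Sdh prefix (Sdhaf3), and 13 mitochondrially encoded genes. The plain nuclear genes were 34 of complex I, 4 of complex II, 6 of complex III, 8 of complex IV and 11 of complex V.

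The study asked how guts of one-week-old females differ when dwdr4 is lost. dwdr4, listed as wuho in the annotation, lies on the X chromosome and encodes the non-catalytic partner of a tRNA methyltransferase. WT was the yw strain and wh7 was a mutant allele of dwdr4, carried homozygously by females without a transgene. Each genotype had 2 libraries, and each library came from RNA of 20 to 30 whole guts pooled at an age of 7 days. The wh7 females were bred from wh7/FM7c mothers and from wh7 fathers kept fertile by a dwdr4-gfp transgene, which the daughters used did not inherit. The origin of the mitochondrial genomes of that stock is not given in the sources used here. The methods state an outcross of wh7 to yw for the lifespan assays and not for the sequenced flies, so a difference in maternal line or background cannot be told apart from genotype.

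Oxidative phosphorylation couples electron flow along the inner mitochondrial membrane to the making of ATP. Complex I oxidises NADH, complex II oxidises succinate, complex III passes the electrons to cytochrome c, complex IV reduces oxygen, and complex V uses the proton gradient to turn its rotor. Apart from complex II, each complex joins nuclear subunits, which are imported, to a few that the mitochondrial genome encodes. In the fly midgut, absorptive enterocytes make up most of the tissue mass, and the surrounding visceral muscle is also rich in mitochondria.

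The libraries held 93603837 to 101610356 counts, and 10795 genes passed the filter on low counts and were tested. Levels below are normalized counts, scaled by the trimmed mean of M values (TMM). Wuho stood at 1463 and 1338 normalized counts in WT and at 2 and 3 in wh7 (edgeR's quasi-likelihood test, adjusted p = 0.021), which fits the labels. Markers of 6 enterocyte genes summed to 2723250 and 3532900 normalized counts in WT and to 4172361 and 3800732 in wh7. Amy-p among these was at 1009404 and 1681520 in WT and at 2771009 and 2383901 in wh7. The 6 genes shared no direction, since 3 had higher values in wh7 and 3 had lower ones. Amy-p and nub lay above both WT libraries, and alphaTry and betaTry below both. All 8 testis markers were at 0. The 5 ovary markers with a row summed to 53 and 30 in WT and to 290 and 30 in wh7. Those of 4 Malpighian tubule genes summed to 34514 and 27424 in WT and to 34896 and 31531 in wh7. Uro among these was at 10390 and 1691 in the WT libraries and at 3391 and 4404 in wh7. The 5 enteroendocrine markers were all lower in wh7 (summed 27941 and 26864 against 12955 and 13363), and AstC among them passed the test. Of 5 fat body markers 4 were lower in wh7, with sums of 634043 and 968793 against 401675 and 410461, while the sums of 6 visceral muscle markers, 153603 to 204179, overlapped between the genotypes. The part of these differences in the values below was not tested, and in bulk tissue fewer cells of a type cannot be told apart from less RNA per cell.

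No subunit gene of oxidative phosphorylation passed the main test between the genotypes, and most nuclear differences were small. Of the 101 members, 82 passed the filter. None of the 82 had an adjusted p under 0.05 in edgeR's quasi-likelihood test, where 0.482% of all genes tested did. DESeq2 called 1 member, ND-B14.5A, and 6.42% of all genes to which it gave an adjusted p. Before adjustment 3 of 82 members had p under 0.05 in edgeR's test (ND-B14.5A, ND-B14.7 and COX6AL, of which the last 2 are named after their values were seen), against 14.5% of all genes.

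The 62 plain nuclear subunits tested had a median log2 fold change (wh7 against WT throughout) of 0.07, beside −0.02 over all genes tested. Of these, 40 were higher in wh7 and 22 lower. Both wh7 libraries exceeded both WT libraries for 25 of them and lay below both for 10, whereas 23.8% and 22.9% of all genes tested were separated upward and downward. The sizes were small. The median absolute log2 fold change, which compares groups of 2 libraries, was 0.13. For the same genes the median absolute difference between single libraries was 0.12 in WT and 0.11 in wh7. Differences between single libraries carry more noise, so the 2 measures are not alike. Over all genes tested the median absolute log2 fold change was 0.26, and the differences between single libraries were 0.34 in WT and 0.16 in wh7. The 95% interval lay within 2-fold in either direction for 61 of the 62 genes and within 1.5-fold for 43.

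The nuclear genes also moved together from library to library. WT replicate 1 was below WT replicate 2 for 50 of the 62 genes, and wh7 replicate 2 was below wh7 replicate 1 for 57. Without WT replicate 1 the split was 36 higher and 26 lower, and without wh7 replicate 1 it was 32 and 30, each with a median of 0.02. Without WT replicate 2 the median was 0.11, and without wh7 replicate 2 it was 0.12. Their combined share of all counts was 0.796% and 0.787% in WT and 0.811% and 0.78% in wh7. The summed share of these genes thus differed between the genotypes by no more than between replicates. It leaves out subunits that carry other symbols, and it is weighted toward the genes with the most counts.

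**Figure D1:**
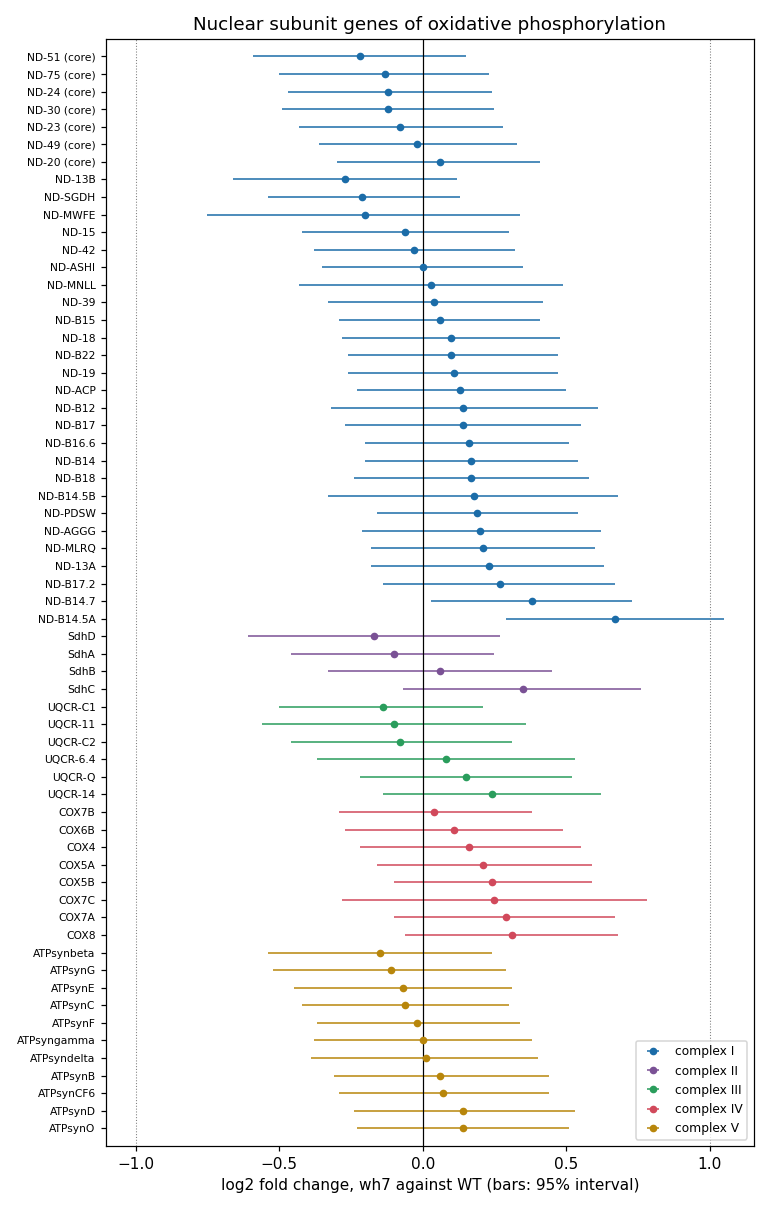
Log2 fold change of wh7 against WT (horizontal axis) for the 62 plain nuclear subunit genes tested (rows, grouped and coloured by complex); points are estimates from edgeR with 2 libraries per genotype, bars are 95% intervals and dotted lines mark 2-fold. All 8 complex IV points lie above 0, the complex I core points lie at or below 0.06, and ND-B14.5A at 0.67 is the farthest from 0.

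Complex I, the largest of the complexes, had 33 of its 34 nuclear genes tested, and the median log2 fold change was 0.10, with 21 genes higher in wh7 and 12 lower. ND-B14.5A (FBgn0025839), the fly counterpart of the accessory subunit NDUFA7, stood apart from the rest. It was at 2000 and 1960 normalized counts in WT and at 3312 and 2990 in wh7. The wh7 libraries did not overlap with WT, and the log2 fold change was 0.67 (SE 0.14) with an adjusted p of 0.156 in edgeR's quasi-likelihood test. DESeq2 gave the same log2 fold change with an adjusted p of 0.0335. In the annotation ND-B14.5A shares 18 of its 907 bases with Cyp4d14, a cytochrome P450 gene on the other strand named here for that overlap. Cyp4d14 was at 4581 and 4214 normalized counts in WT and at 6027 and 9440 in wh7. How far reads in the shared bases were counted for either gene was not tested, since the use of strand in counting is not given in the sources used here.

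ND-B14.7, the counterpart of NDUFA11 in the membrane arm, was at 4941 and 5115 normalized counts in WT and at 6733 and 6375 in wh7, again without overlap. This was the next largest log2 fold change of complex I, 0.38 (SE 0.13, adjusted p = 0.305 in edgeR's test). No gene overlaps it in the annotation. At the other end, ND-13B, the counterpart of NDUFA5 in the matrix arm, was at 2764 and 2932 in WT and at 2501 and 2221 in wh7. The libraries did not overlap, and the log2 fold change was −0.27 (SE 0.15). ND-SGDH, the counterpart of NDUFB5, was at −0.21, also without overlap.

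Complex I divides into core subunits, which bacteria share and which carry the flavin, the iron-sulphur clusters and the quinone site, and accessory subunits that surround them. The 7 nuclear core genes had a median log2 fold change of −0.12, with 1 higher and 6 lower in wh7. Of these core genes, 4 were below both WT libraries, where 22.9% of all genes tested were. ND-75, which had the most normalized counts of these (not corrected for length), carries iron-sulphur clusters of the NADH-oxidising arm and stood at 25188 and 26624 normalized counts in WT against 24658 and 22678 in wh7 (log2 fold change −0.13). ND-51, which binds the flavin, had 15737 and 17649 against 14663 and 14054 (−0.22). ND-24 and ND-30 followed at −0.12 each, ND-23 at −0.08 and ND-49 at −0.02, while ND-20 was at 0.06.

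The 26 accessory genes tested had a median of 0.14, with 20 higher and 6 lower. Here 14 were above both WT libraries and 2 were below both, against 23.8% and 22.9% of all genes tested. After ND-B14.5A and ND-B14.7 came ND-B17.2 (0.27), ND-13A (0.23), ND-MLRQ (0.21) and ND-AGGG (0.20). ND-MLRQ corresponds to NDUFA4, which in mammals is counted with complex IV. ND-ACP, the mitochondrial acyl carrier protein, was at 0.13. The core and accessory medians lay on either side of 0 under each scaling tried, but their size rested on single libraries. Leaving out wh7 replicate 1 gave an accessory median of 0.06 and a core median of −0.19, leaving out WT replicate 1 an accessory median of 0.08, and leaving out wh7 replicate 2 a core median of −0.05. No test compared core with accessory genes, so the contrast is a description of these 4 libraries.

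ND-B8, the counterpart of NDUFA2, had 0 counts in all 4 libraries, although NDUFA2 is a regular part of the enzyme. It shares 71 of its 582 bases in the annotation with Gs1l on the opposite strand, and Gs1l was counted at 3003 to 3996. Whether the reads of ND-B8 were assigned elsewhere was not tested, and its 0 is not read here as lack of expression.

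The 4 subunits of complex II, which also belongs to the citric acid cycle, differed in sign. SdhC, a membrane anchor, was at 4292 and 4700 normalized counts in WT and at 6174 and 5266 in wh7, without overlap (log2 fold change 0.35, SE 0.16, adjusted p = 0.423 in edgeR's test). SdhD, the partner anchor, was at 3386 and 3898 in WT and at 3468 and 2997 in wh7, with overlap (−0.17, SE 0.16). The 2 anchors thus had opposite signs, although neither passed the test. SdhA, the flavoprotein that oxidises succinate, had the most counts, 32470 and 33179 against 31571 and 29630 (−0.10), and the iron-sulphur subunit SdhB was at 0.06.

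Complex III had 3 genes higher and 3 lower, with a median of 0.00. UQCR-14, a small subunit near the quinone site, was at 5458 and 6081 normalized counts in WT and at 7109 and 6535 in wh7 (log2 fold change 0.24, SE 0.14), with no overlap. In the annotation all 701 bases of UQCR-14 lie within CG32576 on the opposite strand, named for that reason. How far reads there were counted for either gene was not tested. UQCR-C1, a large core protein and the most abundant of the group, was at 37943 and 37142 in WT and at 35003 and 32986 in wh7 (−0.14, SE 0.13), again with no overlap. The partner core protein UQCR-C2 was at −0.08. UQCR-Q, a small subunit, was at 0.15.

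Complex IV was the one nuclear group whose genes all had the same sign. All 8 plain COX genes were higher in wh7, with log2 fold changes from 0.04 to 0.31 and a median of 0.23. Of the 8, 7 were above both WT libraries, where 23.8% of all genes tested were. The 8 genes are not separate observations, since WT replicate 1 was below WT replicate 2 for 7 of them. None passed the test. COX8 was at 4022 and 4136 normalized counts in WT and at 5302 and 4793 in wh7 (0.31, SE 0.14, adjusted p = 0.426 in edgeR's test). COX5A, the most abundant, was at 25707 and 28273 in WT and at 32187 and 30403 in wh7 (0.21, SE 0.14), without overlap. COX7B, the lowest, was at 10867 and 11263 against 11475 and 11316 (0.04, SE 0.12), which leaves the genotypes closer than the WT replicates. COX7A (0.29), COX7C (0.25), COX5B (0.24), COX4 (0.16) and COX6B (0.11) lay between. These are the nuclear subunits that surround the catalytic core made by mitochondrially encoded proteins. In the annotation COX6B shares 3112 of its 3799 bases with CG18809 on the same strand. COX7C shares 267 of 1714 with oys, and COX5A 62 of 941 with glo, both on the other strand. How reads in the shared bases were counted was not tested. All 8 stayed above 0 under every scaling and with each library left out, but the median depended on single libraries: without WT replicate 1 it was 0.12 and without wh7 replicate 1 it was 0.15.

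Complex V was the most even of the nuclear groups, with a median absolute log2 fold change of 0.07. Its 11 genes had a median of 0.00, 6 were higher and 5 lower, and the 95% interval of all 11 lay within 1.5-fold. ATPsynD, of the peripheral stalk, was at 12833 and 14514 normalized counts in WT and at 15703 and 14492 in wh7 (log2 fold change 0.14, SE 0.14), with overlap. ATPsynbeta, the catalytic subunit, was at 92109 and 100722 in WT and at 90813 and 83007 in wh7 (−0.15, SE 0.15). ATPsynC, which forms the rotor ring and had the most counts of all nuclear members, was at 106313 and 107985 against 104119 and 101123 (−0.06). ATPsynO, which joins the stalk to the catalytic head, was at 0.14, and the central shaft ATPsyngamma at 0.00.

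Levels between genes were compared as CPM (counts scaled to a common library size) per kb of the longest annotated transcript, averaged over the 4 libraries. By this measure nuclear complex I genes had a median of 53.1, complex II 89.3, complex III 97.2, complex V 160 and complex IV 218. The nuclear range ran from 7.57 for ND-MWFE, a short membrane subunit, to 608 for ATPsynC, whose protein is present in many copies per enzyme. Within complex I the highest level was that of ND-MLRQ at 266, and within complex IV that of COX5A at 415. The mitochondrially encoded genes ran from 10.3 for mt:ND6 to 6559 for mt:CoIII, so they covered nearly the whole nuclear range and reached above it.

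**Figure D2:**
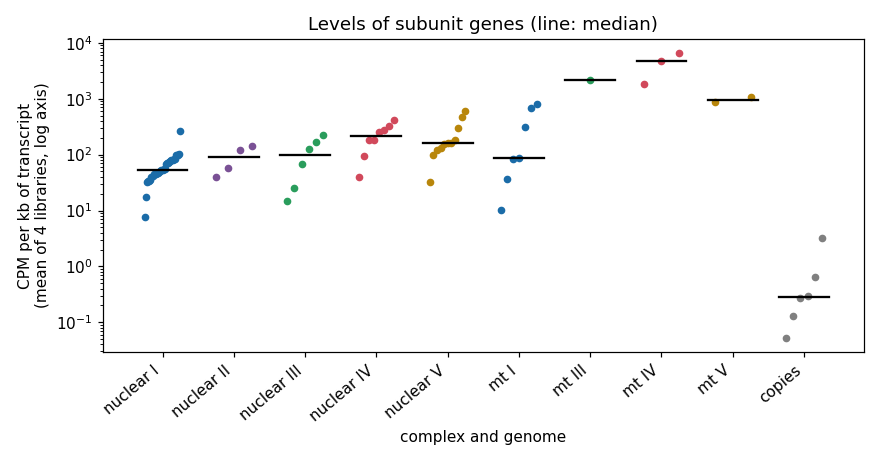
Level of each tested subunit gene (points) as CPM per kb of transcript on a log axis, the mean of 4 libraries, by complex and genome (mt, mitochondrially encoded), with the median as a line. The mitochondrial complex IV genes lie at 1828 to 6559, above all nuclear genes, and the 6 copies tested lie at or below 3.24.

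Transcript length ran alongside the sign of the nuclear differences. Across the 62 nuclear genes, length and log2 fold change had a Spearman rho of −0.42, given as a description since the genes share their libraries, whereas over 10741 genes tested it was −0.03. Of 24 subunits with transcripts over 500 and up to 750 bases, 19 were higher in wh7 (median 0.15), and of 7 between 1500 and 2000 bases 1 was higher (median −0.06). The medians of all genes in those ranges were 0.02 and −0.02. Core complex I genes had a median length of 1282 bases, accessory genes 753 and complex IV genes 729, so length and class were partly confounded. Core genes ran from 819 to 2571 bases, accessory genes from 477 to 1618 and complex IV genes from 417 to 1114, so their ranges overlapped. The part of length in the differences was not tested.

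**Figure D3:**
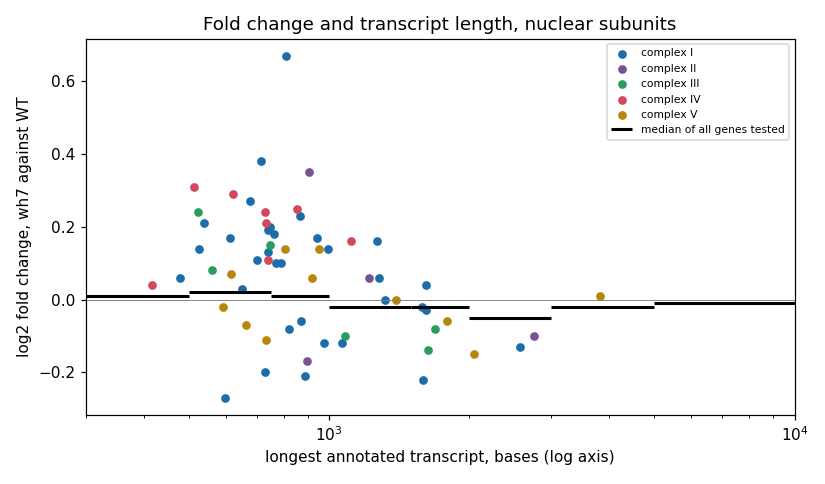
Log2 fold change of wh7 against WT (vertical axis) against the longest annotated transcript in bases (log axis) for the 62 nuclear subunit genes (points coloured by complex); black lines give the median of all genes tested in each length range. Subunits of up to 1000 bases lie mostly above 0 and those over 1500 bases mostly below, while the lines stay between −0.05 and 0.02.

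The 13 mitochondrially encoded genes showed no common direction and varied more between replicates than nuclear genes did. Their median log2 fold change was −0.03, with 5 higher and 8 lower, and none passed the test. The median difference between replicates was 0.47 on the log2 scale in WT and 0.34 in wh7. WT replicate 1 was below WT replicate 2 for all 13, and wh7 replicate 2 was below wh7 replicate 1 for all 13. Without WT replicate 1 the count was 3 higher and 10 lower (median −0.22), and without WT replicate 2 it was 12 and 1 (median 0.37). Leaving out wh7 replicate 1 or 2 gave medians of −0.22 and 0.16, so the direction of this group was not settled by 2 libraries per genotype. The large ribosomal RNA gene mt:lrRNA had the same order of libraries, with normalized counts of 945545 and 1653920 for WT and of 1597899 and 1276296 for wh7.

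Of the mitochondrial complex IV genes, which encode the catalytic core that binds heme and copper, all 3 were higher in wh7 and did not overlap. Of all genes tested, 23.8% were separated upward. mt:CoI was at 583208 and 693254 normalized counts in WT and at 816233 and 744972 in wh7 (log2 fold change 0.29, SE 0.17, adjusted p = 0.546 in edgeR's test). mt:CoII was at 100118 and 120671 in WT and at 135301 and 125194 in wh7 (0.24, SE 0.17). mt:CoIII was at 416397 and 485098 in WT and at 561736 and 525905 in wh7 (0.27, SE 0.16). No other mitochondrially encoded member was separated by genotype. Without WT replicate 1 the median of the 3 was 0.16, and without WT replicate 2 it was 0.38.

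The mitochondrial complex I genes encode the proton-pumping membrane arm, and all 7 overlapped between the genotypes. mt:ND1 was at 61383 and 83313 normalized counts in WT and at 81225 and 61379 in wh7 (log2 fold change −0.02). mt:ND2 had the widest spread, 4800 and 13813 in WT and 10382 and 5894 in wh7 (−0.19, SE 0.59). Either genotype held both a high and a low library for these genes.
mt:ND3 was at 2224 and 3371 in WT and at 3496 and 2405 in wh7 (0.08). mt:ND4 was at 31453 and 48749 against 43653 and 34493 (−0.04). mt:ND4L, which adjoins it and shares 1 base with it in the annotation, was at 745 and 1416 against 1196 and 754 (−0.15). The 3 followed the pattern of mt:ND1, with WT replicate 1 low and WT replicate 2 high.
mt:ND5 was at 95608 and 125423 in WT and at 124995 and 102015 in wh7 (0.04). mt:ND6, the member with the lowest level per length among the 13, was at 424 and 653 against 557 and 446 (−0.10). mt:Cyt-b, the heme protein of complex III, was at 220910 and 262188 against 252332 and 221066 (−0.03). These 3 genes too overlapped between the genotypes.

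The mitochondrial complex V genes encode the proton channel and a small partner protein. mt:ATPase6 was at 64988 and 90280 normalized counts in WT and at 71135 and 52089 in wh7 (log2 fold change −0.33, SE 0.26). mt:ATPase8, which shares 7 bases with it, was at 8974 and 20435 in WT and at 15451 and 8723 in wh7 (−0.28, SE 0.50). Both overlapped between the genotypes. mt:CoIII, next along the same strand and sharing 1 base with mt:ATPase6, had the opposite sign.

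**Figure D4:**
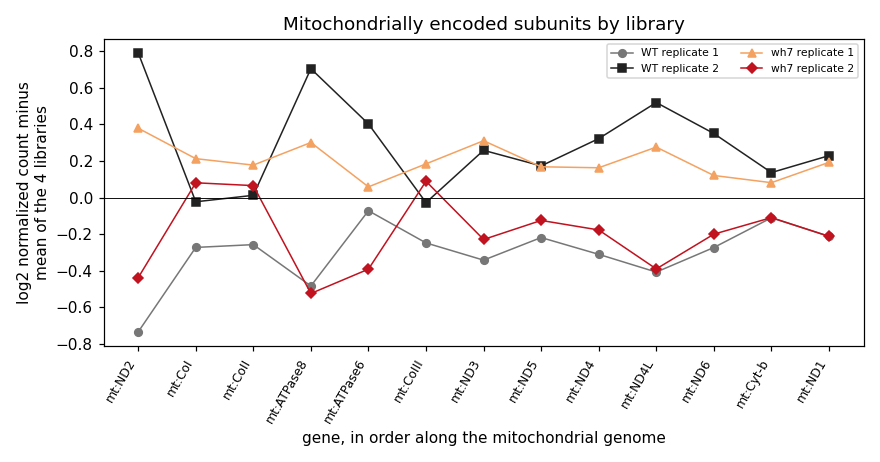
Log2 normalized count of each mitochondrially encoded subunit gene minus its mean over the 4 libraries (vertical axis), with genes in order along the mitochondrial genome; lines join the values of 1 library and carry no other meaning. WT replicate 1 lies below WT replicate 2 and wh7 replicate 2 below wh7 replicate 1 for all 13 genes, and the wh7 libraries both lie above both WT libraries for mt:CoI, mt:CoII and mt:CoIII alone.

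As a share of all counts, the 13 mitochondrially encoded genes took 1.72% and 1.95% in WT and 2.17% and 1.99% in wh7. mt:CoI, mt:CoII and mt:CoIII took 1.19% and 1.3% in WT and 1.55% and 1.47% in wh7, while the 10 other genes took 0.531% and 0.652% against 0.621% and 0.516%. Within the mitochondrially encoded protein genes, the 3 Co genes made up 69.1% and 66.7% in WT and 71.5% and 74% in wh7. With 2 libraries in each genotype the smallest p an exact permutation test (two-sided) of such shares can give is 0.33, and none was run. They were chosen for comparison after the values of single genes had been seen.

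The genes for mitochondrial rRNA and tRNA, which are cut from the same long precursors as the protein genes, gave a pattern along the genome. Of 24 such genes 15 were tested. All 15 had a log2 fold change above 0, with a median of 0.53, 10 did not overlap and none passed edgeR's test, while 6 had p under 0.05 before adjustment and DESeq2 called 3. Over all genes tested, 23.8% were separated upward, 14.5% had p under 0.05 and 6.42% were called by DESeq2. The 5 with the largest values, named after they were seen, lay around mt:CoI and mt:CoII. mt:tRNA:Tyr-GTA, which precedes mt:CoI on the other strand, was at 297 and 375 normalized counts in WT and at 842 and 1142 in wh7 (log2 fold change 1.56, SE 0.25, adjusted p = 0.105 in edgeR's test and 7.78e-05 with DESeq2). Next to it, mt:tRNA:Cys-GCA was at 121 and 146 against 341 and 460 (1.59). mt:tRNA:Leu-TAA, between mt:CoI and mt:CoII, was at 65 and 85 against 195 and 282 (1.67). In these 3 genes both wh7 libraries were well above both WT libraries.

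mt:tRNA:Trp-TCA, which follows mt:ND2 and shares 8 bases with mt:tRNA:Cys-GCA, was at 22 and 32 normalized counts in WT and at 62 and 91 in wh7 (1.51), and mt:tRNA:Lys-CTT, after mt:CoII, at 13 and 13 against 36 and 48 (1.70). With DESeq2, mt:tRNA:Cys-GCA and mt:tRNA:Leu-TAA also passed (adjusted p = 0.00105 and 0.00863), and mt:tRNA:Trp-TCA and mt:tRNA:Lys-CTT did not. mt:tRNA:Asp-GTC, further on, was at 0.79, and mt:tRNA:Pro-TGG, beyond mt:ND4L, at 0.01. Together the tRNA genes took 0.000882% and 0.00111% of counts in WT and 0.00216% and 0.00266% in wh7. Libraries were made with a kit for mRNA and selected for size, and a mature tRNA is shorter than most fragments of such libraries. Whether these counts came from mature tRNAs, from precursors or from the ends of neighbouring transcripts was not tested.

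**Figure D5:**
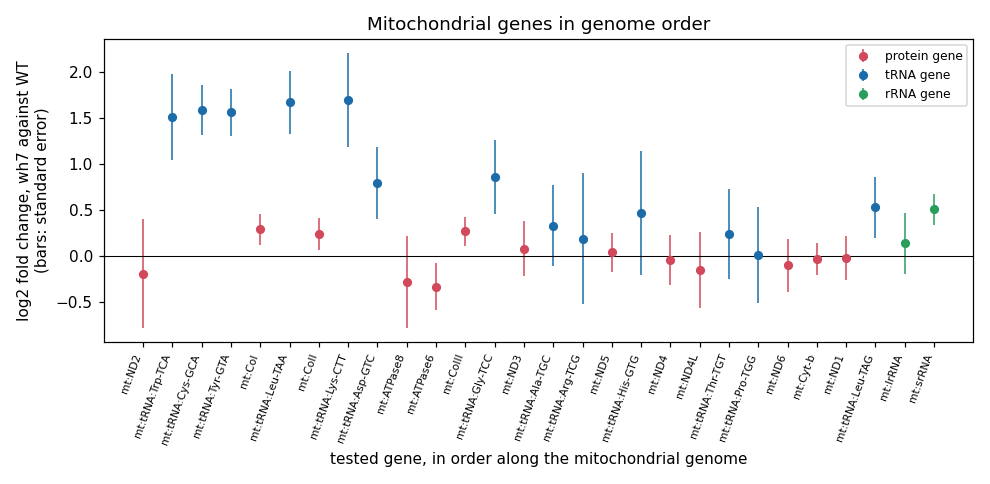
Log2 fold change of wh7 against WT (vertical axis; bars are standard errors, 2 libraries per genotype) for all tested mitochondrial genes in order along the mitochondrial genome, coloured by protein, tRNA or rRNA gene. The tRNA genes from mt:tRNA:Trp-TCA to mt:tRNA:Lys-CTT lie between 1.51 and 1.70, those from mt:tRNA:Ala-TGC to mt:tRNA:Leu-TAG between 0.01 and 0.53, and the protein genes between −0.33 and 0.29.

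The copies had few or no counts in the gut. Several lie wholly inside another gene in the annotation (ATPsynCF6L in Con, ND-B14.5AL in CG14459), so that, as for ND-B8, a count of 0 is not read as lack of expression. Many such duplicated subunit genes of Drosophila are known for expression in the testis. Of the 24 copies, 18 did not pass the filter, and 11 members, ND-B8 included, had 0 counts in all 4 libraries. The 6 that were tested lay between 0.0524 and 3.24 on the same scale per kb. ND-51L1 was at 125 and 130 normalized counts in WT and at 153 and 122 in wh7 (log2 fold change 0.11, SE 0.28), where its namesake ND-51 held 14054 or more. UQCR-11L was at 138 and 127 against 104 and 183 (0.12, SE 0.37), beside 1480 and 1664 against 1594 and 1342 for UQCR-11, the hinge protein of complex III. Both copies overlapped between the genotypes and lie inside a larger gene on the same strand, Smurf and Acsl.

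COX6AL was the single copy with no overlap and p under 0.05 before adjustment. It was at 24 and 25 normalized counts in WT and at 6 and 3 in wh7 (log2 fold change −2.40, SE 0.71, adjusted p = 0.255 in edgeR's test). All 540 bases of COX6AL lie within Cyp4aa1 on the same strand, and Cyp4aa1, named for that reason, was at 1835 and 1845 in WT and at 765 and 690 in wh7 (−1.34, adjusted p = 0.0687). Whether the COX6AL counts were reads of Cyp4aa1 was not tested. Sdhaf3, which helps to assemble succinate dehydrogenase, was at 184 and 112 in WT and at 222 and 178 in wh7 (0.44, SE 0.35), with overlap.

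Subunits that carry other symbols were read from a list for comparison. The 10 genes split evenly, 5 higher and 5 lower, around a median of 0.04. ox, a small subunit of complex III, was at 3520 and 3482 normalized counts in WT and at 4428 and 4655 in wh7 (log2 fold change 0.38, SE 0.13, adjusted p = 0.323 in edgeR's test). The complex IV subunits levy and cype were at 0.16 and 0.15, on the side of the plain COX genes. RFeSP and Cyt-c1, the catalytic nuclear subunits of complex III, were at −0.03 and −0.07, and blw, the alpha subunit of complex V, at −0.06. Cyt-c-p, the somatic cytochrome c, was at 42560 and 24562 in WT and at 21378 and 25530 in wh7 (−0.52, SE 0.31), and its WT replicates lay further apart than the genotypes.

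Of 22 assembly factors, 8 were higher and 14 lower, with a median of −0.07. The largest difference with no overlap was that of Sirup, an assembly factor of succinate dehydrogenase. It was at 713 and 1321 normalized counts in WT and at 247 and 241 in wh7 (log2 fold change −2.06, SE 0.35). Its adjusted p was 0.112 in edgeR's test and 1.66e-05 with DESeq2. SdhA, which Sirup serves, was at −0.10. Surf1, needed for complex IV assembly, was at 804 and 724 in WT and at 1054 and 948 in wh7 (0.39), and Cox10, which makes the heme of complex IV, at −0.34. Ccdc56, also of complex IV assembly, was at 2195 and 1273 in WT but at 0 and 1427 in wh7. The whole of Ccdc56 lies within mtTFB1 on the same strand, and mtTFB1 was at 3444 and 2537 in WT and at 4538 and 3155 in wh7, so the 0 may not be read as loss of Ccdc56.

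Genes that copy and express the mitochondrial genome went both ways (5 higher, 8 lower of 13, median −0.06), and none passed the test. TFAM, which packages mitochondrial DNA, was at 2861 and 2177 normalized counts in WT and at 1940 and 2009 in wh7 (log2 fold change −0.35). The transcription factor mtTFB2 was at 558 and 634 against 379 and 459 (−0.51), and PolG2, a subunit of the mitochondrial DNA polymerase, at 2194 and 1228 against 1134 and 1105 (−0.61). These 3 of the 13 genes were the ones below both WT libraries, a share close to the 22.9% of all genes tested. mTTF, a transcription termination factor, was the single gene of the list above both, at 914 and 930 against 1135 and 1156 (0.31). The regulator srl, the fly PGC-1, was at 9604 and 3328 in WT and at 4318 and 4551 in wh7, a spread within WT that covers both wh7 libraries.

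Genes of the citric acid cycle were mostly slightly lower in wh7. Of 18 tested, 14 were lower and 4 higher (median −0.11), with 8 below both WT libraries and 3 above both, against 22.9% and 23.8% of all genes. Some of these had few normalized counts. Fum4 (58 and 56 in WT, 20 and 23 in wh7) and Scsalpha2 (13 and 14, 11 and 12) were among the 8. Fum2 (27 and 22, 58 and 33) was among the 3. Idh3g, a subunit of isocitrate dehydrogenase, was at −0.25, and mAcon1, the main aconitase, at 0.17. Of 14 carriers, 6 were higher and 8 lower. The phosphate carrier Mpcp2, which feeds complex V, was at 65033 and 69673 normalized counts in WT and at 52325 and 46401 in wh7 (−0.45, SE 0.15, adjusted p = 0.294 in edgeR's test). The ADP/ATP translocase sesB was at 168245 and 101003 in WT and at 102281 and 113091 in wh7 (−0.32), with overlap. Ucp4A, of the uncoupling protein family, was at 4166 and 6013 against 8501 and 7157 (0.62).

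Among 14 genes of mitochondrial stress and dynamics, 11 were higher and 3 lower, with a median of 0.15. Sod2, the mitochondrial superoxide dismutase, was at 6181 and 6794 normalized counts in WT and at 8728 and 7911 in wh7 (log2 fold change 0.36), and Fis1, of mitochondrial fission, at 4075 and 5273 against 6522 and 6348 (0.46). The chaperone Hsp60A was at 43542 and 19355 in WT and at 22197 and 29645 in wh7 (−0.28), with overlap. Of 17 import genes 6 were higher and 11 lower (median −0.13). Of these, 3 were above both WT libraries and 0 below both, against 23.8% and 22.9% of all genes tested. The 10 coenzyme Q genes split into 5 higher and 5 lower (−0.02). In none of these lists did a gene have an adjusted p under 0.05 in edgeR's quasi-likelihood test, and with DESeq2 Sirup alone did. Before adjustment, p in edgeR's test was under 0.05 for 1 gene of the citric acid cycle (Fum4), 1 carrier and 1 assembly factor. The same held for 2 import genes, both higher in wh7, and 1 subunit with another symbol, against the 14.5% of all genes given above.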

How the data were processed

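RNA-seq of 4 libraries (2 WT, 2 wh7; separate pools of guts) was analysed, and p-values measure the spread between these libraries. Trimming with Trimmomatic 0.36, alignment with HISAT2 and quantification with StringTie 2.1.4 were done by the authors, who deposited raw counts per gene as whole numbers. The genome build and the use of strand are not given in the sources used here. A deposited table of the authors' own comparison (fold changes and p-values) was not used.

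The analysis used edgeR 4.0.16 with limma 3.58.1 under R 4.3.3. Genes were kept by filterByExpr and scaled by TMM (factors 0.9631 to 1.039), and edgeR's quasi-likelihood test compared wh7 with WT without covariates. Benjamini-Hochberg adjustment covered every gene tested, with a threshold of 0.05. Each standard error is the size of the log2 fold change over the root of F. The fit was tested on simulated data. DESeq2 1.42.0, other scalings, no filter, a replicate block and leaving out each library were alternatives. A symbol was found for 17710 gene identifiers and none for 97. Transcript lengths, overlaps and gene order came from the BDGP6.54 annotation, and no coordinates are given. Progenitor markers were not analysed here, since 1 of 4 was used.

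The members and lists were chosen with earlier results of these data known. Values per library are given for all mitochondrially encoded genes, for the highest, lowest and most abundant plain subunit of each nuclear complex, for members past the threshold, for separated members with a mean of at least 50 normalized counts and a fold of at least 2, and for copies with that mean. Other genes named come from the lists or were chosen after their values were seen.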

Additional observations from a re-analysis of the deposited data

How the results depend on the processing

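With 2 libraries per genotype, differences between the genotypes of the size seen in most subunits were not detectable. The number of genes called (52) was 30 with no filter on low counts, 776 with DESeq2, 0 with the replicate number as a block and 0 to 921 when 1 library was left out (401 without WT replicate 1, 921 without WT replicate 2, 0 without either wh7 library). The labels give no pairing beyond the number, and differences between replicates correlated at −0.155 across genes between the genotypes. The crossed pairing, added after seeing the data, gave 99. Members called were 0 in every edgeR fit and 1 with DESeq2. Members with an unadjusted p under 0.05 in edgeR (3) were 1 with the replicate block, 1 with the crossed pairing, and 0 to 9 with a library left out. Leaving out 1 library in turn gave median log2 fold changes of −0.10 to 0.10 for complex III, 0.12 to 0.26 for nuclear complex IV, −0.08 to 0.08 for complex V, −0.19 to −0.05 for core and 0.06 to 0.17 for accessory complex I genes, and −0.22 to 0.37 for mitochondrially encoded genes. The log2 fold change then changed sign for mt:ND1 (−0.24 to 0.21), mt:ND2 (−0.76 to 0.76), mt:ND3 (−0.22 to 0.40), mt:ND4 (−0.32 to 0.31), mt:ND4L (−0.54 to 0.38), mt:ND5 (−0.14 to 0.24), mt:ND6 (−0.38 to 0.23), mt:Cyt-b (−0.15 to 0.09), mt:ATPase8 (−0.76 to 0.43), ND-51L1 (−0.06 to 0.27) and UQCR-11L (−0.34 to 0.46). The cause was not tested. Of 290 values of the 29 members named by rule under the alternatives, 269 kept direction and side of the threshold. Since no member was called in any edgeR fit, the side of the threshold could hardly change. The 20 values that changed sign all did so with a library left out. Of 90 medians by complex, 84 did not move beyond the spread between replicates, and the 6 that did moved with a library left out. Scaling by size factors, by totals or without mitochondrial genes left the median over all genes at −0.02.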
